A study of Homo sapiens with 12 samples.

Results

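PRKCI knockdown tumor-initiating cells (TICs) were compared with parental cells of the same human lung tumor lines, 4 in number: H1703, H1299, CHAGO and CALU. The libraries were taken by the group and line in their labels, which gave 4 knockdown TIC libraries and 4 parental libraries, 8 of the 12 RNA sequencing libraries analysed. Parental cells are described as adherent in the labels. Knockdown TICs were TICs of the line in which PRKCI was knocked down, and the remaining 4 libraries were TICs with no knockdown named. Each line gave 1 library per state, so the 4 lines were the replicates. No separate cultures of a line stand behind any error or p-value below. Unless another setting is named, these come from 1 fit to all 12 libraries that shares information across genes. An SE is therefore not the spread of a gene's 4 line differences. The sources used here do not give the knockdown reagent, any control construct in the TICs or the TIC culture conditions. The design text also names a PRKCI knockdown in parental cells, not analysed here. A difference between knockdown TICs and parental cells therefore holds the change of state and the knockdown together, and the TIC libraries are given beside it to show each gene's level in TICs that kept PRKCI. The comparison asks which differences of TICs from parental cells were still measured when PRKCI was reduced.

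The product of PRKCI is the iota isoform of protein kinase C. It belongs to the atypical branch of the family, which needs neither calcium nor diacylglycerol and it works with PAR6 and CDC42 in cell polarity. The gene is often amplified together with SOX2 in squamous lung carcinoma, where the kinase is known as an oncogene. Hedgehog signaling starts when a ligand, made active by the acyltransferase HHAT, binds the receptor PTCH1 and releases SMO, which in turn activates the GLI transcription factors, with GLI1 itself a target gene. TICs are the tumor cells able to found a new tumor, and are usually studied in cultures that select for growth without attachment.

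Reads were counted per gene. The depth went with the line: 21.2 to 36.1 M counted reads (M, mega) for H1703 and H1299 and 63.8 to 91.8 M for CHAGO and CALU. Of 22506 genes listed, 14008 had enough reads to be tested. The lines differed in their epithelial markers: EPCAM and CDH1 had no reads in the parental and knockdown libraries of H1703 and H1299, whereas CHAGO held 432 and 611 CPM (counts per M counted reads) of EPCAM in its parental and knockdown libraries. The squamous markers TP63 and KRT5 were at 0 in both H1703 libraries and at most at 0.132 CPM in the H1299 ones. Among leukocyte markers, PTPRC reached at most 0.703 CPM and CD3E and TYROBP had no reads. The summed level of the 13 listed leukocyte genes was 1.54 to 417 CPM in parental and 150 to 809 CPM in knockdown libraries, and most of it, except in the CHAGO parental library, was CD68, a lysosomal membrane protein also made outside leukocytes. In each sentence below that gives 4 levels or 4 differences, they are those of H1703, H1299, CHAGO and CALU in this order, and where a level is set against another, the parental one comes first. A value with ± in brackets is a log2 fold change of knockdown TICs over parental cells with its SE unless another contrast is named. Levels are CPM and are not divided by gene length, so they compare libraries and not genes.

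PRKCI itself was 303, 309, 357 and 261 CPM in parental cells. In the knockdown TICs it was 58.1, 25.8, 23.2 and 41.5 CPM. TICs with no knockdown held 342, 199, 608 and 237 CPM. All 4 knockdown libraries were below all 4 parental ones, and PRKCI fell 8.41-fold against parental cells (log2 fold change −3.07 ± 0.37 SE, edgeR quasi-likelihood test, Benjamini-Hochberg adjusted p = 0.0275, n = 4 lines). The library of each line labelled as knockdown thus held less PRKCI than both other libraries of that line. In CHAGO the knockdown library held the least PRKCI of the 4, while the TIC library of that line held the most of all. Without H1703, H1299 or CALU the adjusted p of PRKCI was 0.138, 0.158 and 0.194, and without CHAGO 0.033, at log2 fold changes of −3.33, −2.86, −3.24 and −2.86.

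Across the genome 5 genes passed an adjusted p of 0.05, 0.0357% of those tested, 3 of them higher (0.0214%) and 2 lower (0.0143%). KLHL24 and MMP3 were among those that rose, and PRKCI and CRIM1 fell. An unadjusted edgeR p under 0.05 was met by 1505 genes, 10.7% of all tested, with 764 higher and 741 lower. With library totals in place of TMM scaling that split was 624 higher and 949 lower, and the called genes split as 6 higher and 2 lower with DESeq2's size factors and as 18 higher and 2 lower with limma on the authors' mode-normalized values. DESeq2 called 400 genes (2.86%), 262 of them higher. Differences of single genes in 1 line were weakly related to those in another, with correlations of 0.0184 to 0.091 across genes for the 6 pairs of lines, which is a description since genes are not independent. The median log2 fold change over all tested genes was −0.05, and 47.1% of them were higher.

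KLHL24, which encodes an adaptor of a cullin ubiquitin ligase, held 97.2, 98.5, 35.6 and 89.6 CPM in parental cells. Its level in knockdown TICs was 345, 260.0, 146 and 291 CPM. The lowest knockdown library, that of CHAGO, was above the highest parental one. KLHL24 rose 3.35-fold (log2 fold change 1.75 ± 0.19 SE, edgeR adjusted p = 0.0165). TICs held 389.8, 366, 126 and 233 CPM, so both TIC states were above parental cells in every line. Knockdown TICs differed from TICs by −0.03 ± 0.18 on the log2 scale.

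CRIM1, a membrane protein that binds bone morphogenetic proteins, held 778, 309, 438 and 832 CPM in parental cells. The knockdown TICs held 281, 78.4, 116 and 192 CPM, all below all parental libraries. CRIM1 fell 3.6-fold (log2 fold change −1.85 ± 0.24 SE, edgeR adjusted p = 0.0484). TICs held 232, 193, 235 and 401 CPM, between the other states in H1299, CHAGO and CALU but below the knockdown library in H1703. The difference of knockdown TICs from TICs was −0.79 ± 0.24 (edgeR unadjusted p = 0.00784, adjusted p = 0.98).

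MMP3, the matrix protease stromelysin, was called on reads that came almost wholly from CALU and lies outside the rule for named genes, which asks for the same direction in every line. It had 141 reads in the CALU parental library and 29618 in the CALU knockdown library, or 1.63 and 417 CPM. The other parental libraries had 0 reads, and the other knockdown libraries had 8, 1 and 0. edgeR gave a log2 fold change of 7.74 ± 0.62 SE with an adjusted p of 0.0165, while DESeq2 gave an adjusted p of 0.383. The line differences were 3.19, 1.11, 0 and 7.97, a spread that this SE does not show. Without the CALU knockdown library the adjusted p was 0.703.

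KLHL24 and CRIM1 lost the call when any 1 line was left out, a fit on fewer libraries. The adjusted p over the 4 such fits was 0.13 to 0.194 for KLHL24 and 0.0767 to 0.312 for CRIM1, and their log2 fold changes stayed within 1.66 to 1.87 and −2.01 to −1.76.

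**Figure D1:**
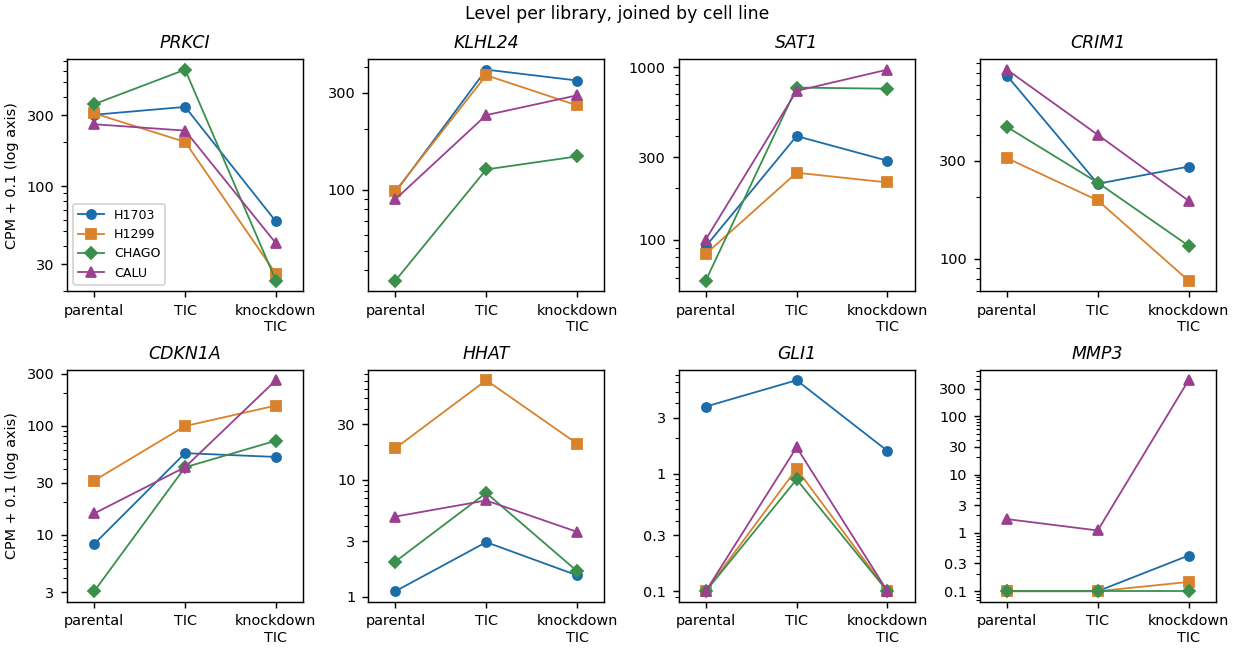
Level of 8 genes in each library, as CPM plus 0.1 on a log axis, with a line joining the parental, TIC and knockdown TIC libraries of each cell line. PRKCI is lowest in the knockdown TICs of every line, KLHL24 and SAT1 are higher in both TIC states than in the parental cells of each line, HHAT and GLI1 are highest in TICs with PRKCI, and MMP3 is high in the CALU knockdown library.

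**Figure D2:**
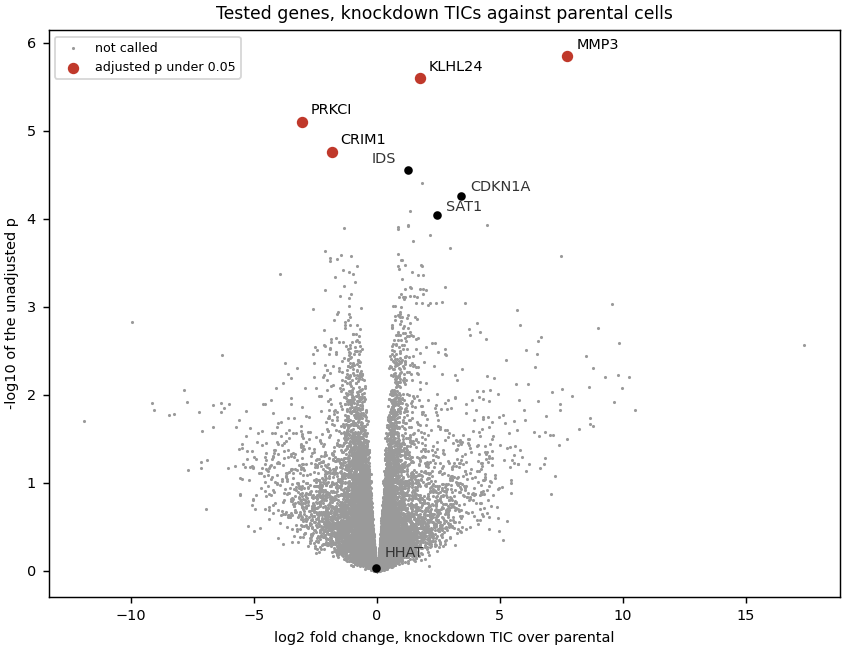
Log2 fold change of knockdown TICs over parental cells (x) against −log10 of the unadjusted edgeR p (y) for the tested genes reported here. Called genes are red and named, and IDS, CDKN1A, SAT1 and HHAT are marked in black, with HHAT near 0 on both axes.

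Of all tested genes, 1134 (8.1%) were higher and 1276 (9.11%) lower in all 4 lines. From these the 15 of smallest p in each direction with enough reads were named, called genes first. The named higher genes that missed the threshold were 13, as were the named lower ones. IDS, a lysosomal sulfatase with a near copy in the genome, was among the higher, at 201, 57.1, 87.4 and 399 CPM in parental cells and 450.3, 177, 236 and 720.4 CPM in knockdown TICs (log2 fold change 1.27 ± 0.18, edgeR adjusted p = 0.0555).

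CDKN1A, the p53-induced inhibitor of cyclin-dependent kinases, had the largest difference of the named higher genes. Its level was 8.18, 31.5, 2.96 and 15.7 CPM in parental cells and 51.8, 153, 73 and 262 CPM in knockdown TICs, with no overlap between the groups. The log2 fold change was 3.41 ± 0.51 SE (edgeR adjusted p = 0.086). SAT1, which acetylates polyamines for breakdown, also had no overlap, at 91.6, 82.8, 58 and 100.3 CPM against 287, 215, 751 and 968 CPM. Its difference was larger in CHAGO and CALU (3.69 and 3.27) than in H1703 and H1299 (1.65 and 1.38), and the fit gave 2.43 ± 0.39 with an edgeR adjusted p of 0.107. SLC20A1, a phosphate transporter, differed by 1.85 ± 0.27 (edgeR adjusted p = 0.0694). Of the rest, KDSR, a ketosphinganine reductase of ceramide synthesis, RICTOR, the defining subunit of mTORC2, and FNIP1, a partner of folliculin, had knockdown levels wholly above parental ones, at log2 fold changes of 1.27, 0.87 and 1.01. ARMCX3, C12orf35, RAB22A, REEP3 and WLS, the carrier that brings Wnt ligands to the surface, differed by 1.36, 1.26, 0.85, 0.87 and 1.46 with overlapping groups. RICTOR was the most even of these across lines, at 0.77, 0.81, 0.86 and 1.01.

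Among the 13 named lower genes that missed the threshold, MTHFD1, an enzyme of folate one-carbon metabolism, had the smallest p. It held 73.8, 106, 108 and 85.6 CPM in parental cells and 34.8, 31.5, 56 and 30.2 CPM in knockdown TICs, with no overlap and a log2 fold change of −1.33 ± 0.22 SE (edgeR adjusted p = 0.107). PLCB4, a phospholipase C acting below G proteins, was at 62.5, 188, 44.4 and 95.2 CPM against 38.4, 42.8, 5.85 and 17.6 CPM, with no overlap but a smaller difference in H1703 (−0.70) than in the other lines. LMNB1, a lamin of the nuclear envelope, was at 111, 125, 154 and 78.7 CPM against 29.1, 41.3, 76.8 and 10.6 CPM, again with no overlap. TEX261 had the 4th pair of groups with no overlap in this set, at a log2 fold change of −1.73. The named lower genes also held RBM3, a cold-induced RNA-binding protein (−1.48 ± 0.27), OXCT1, which starts the use of ketone bodies (−1.07 ± 0.19), and AHCY, which removes S-adenosylhomocysteine (−0.97 ± 0.19). The others were HIST1H4H, a replication-dependent histone (−1.91), NUCKS1 (−0.81), BZW2 (−1.38), POLR3B, a subunit of RNA polymerase III (−1.14), SRSF2, a splicing factor (−0.89), and SNHG1, a host of small nucleolar RNAs (−1.35). SRSF2 was close to even across lines, at −0.88, −0.96, −0.82 and −0.91, while SNHG1 ranged from −0.57 in CHAGO to −2.25 in H1299. All knockdown libraries lay above all parental ones for 100 genes (0.714% of those tested) and below them for 133 (0.949%).

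**Figure D3:**
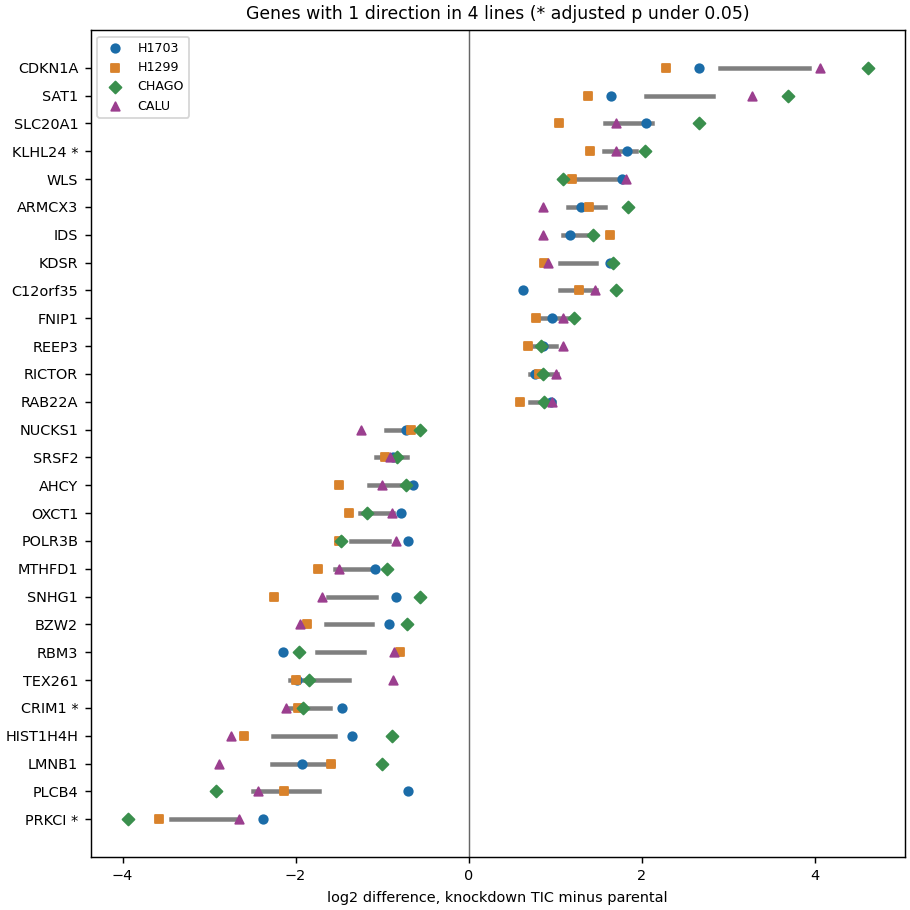
Log2 difference between the knockdown TIC and parental library of each line for the named higher and lower genes reported here, with the edgeR estimate ± SE as a bar and called genes starred. CDKN1A and SAT1 lie further from 0 in CHAGO and CALU, RICTOR and SRSF2 hold all 4 lines within a narrow range, and PLCB4 has its smallest difference in H1703.

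The same genes were then read in the TICs that kept PRKCI. Both comparisons share the parental libraries, so their values are given side by side and not related to each other, and the direct contrast of knockdown TICs with TICs shows how far the 2 TIC states lay apart. SAT1 was at 2.46 in TICs and 2.43 in knockdown TICs on the log2 scale, both against parental cells (direct contrast −0.03 ± 0.36). For OXCT1 the values were −1.19 and −1.07 (direct contrast 0.12 ± 0.19), and for SRSF2 −0.89 and −0.89 (direct contrast −0.01 ± 0.18).

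Some named genes had estimates further from parental cells with the knockdown than without it, with an adjusted p of 0.98 in the direct contrast in each case. NUCKS1 was at −0.24 in TICs and −0.81 in knockdown TICs, and the direct contrast was −0.57 ± 0.15 (edgeR unadjusted p = 0.00386). POLR3B was at −0.40 and −1.14 (direct contrast −0.74 ± 0.22, edgeR unadjusted p = 0.00679). CDKN1A was at 2.43 and 3.41, and its direct contrast of 0.99 ± 0.48 had an edgeR unadjusted p of 0.0658. Its levels were 56.1, 99.5, 41.6 and 41.8 CPM in TICs and 51.8, 153, 73 and 262 CPM in knockdown TICs. The knockdown library was thus slightly lower in H1703 and higher in the other lines, most of all in CALU. VGLL3, a cofactor of TEAD transcription factors, lay between the other states: it held 0, 26.3, 5501 and 130.3 CPM in parental cells, 0, 3.07, 702 and 23.1 in TICs and 0, 9.58, 1097 and 60.8 in knockdown TICs. H1703 had no reads, and in the other 3 lines the knockdown level was below the parental and above the TIC level (log2 fold change against parental cells −1.61 ± 0.27, edgeR adjusted p = 0.139; against TICs 1.24 ± 0.26, adjusted p = 0.98). In the direct contrast over all genes PRKCI and MMP3 alone passed an adjusted p of 0.05 (0.0143% of those tested), while 292 genes (2.08%) were higher and 308 (2.2%) lower at an unadjusted edgeR p under 0.05. TICs against parental cells gave 4 called genes (0.0286%), KLHL24, IDS and VGLL3 among them. For the genes that did not pass, the intervals around the contrasts still leave room for differences of the size of their SE and more.

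**Figure D4:**
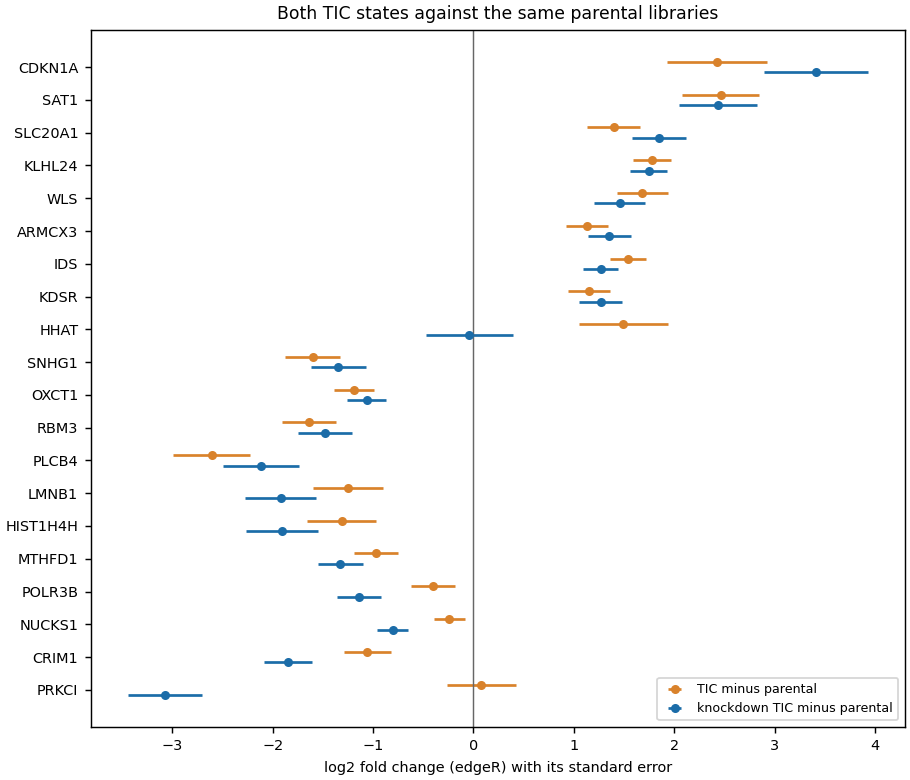
Log2 fold change (edgeR) with its SE of TICs (orange) and knockdown TICs (blue), each against the same parental libraries, for 20 genes. SAT1, KLHL24, OXCT1 and RBM3 have both estimates within 1 SE of each other, HHAT is at 1.49 in TICs and −0.04 in knockdown TICs, and PRKCI is at 0.08 and −3.07.

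Hedgehog genes were read next, from the ligand to the targets. SHH, the ligand, had 0 reads in every library. HHAT, which attaches the fatty acid that the ligand needs, held 1.02, 18.5, 1.91 and 4.76 CPM in parental cells, 2.84, 71, 7.63 and 6.57 in TICs and 1.43, 20.3, 1.56 and 3.49 in knockdown TICs. The knockdown level was above the parental one in H1703 and H1299 and below it in CHAGO and CALU, and the TIC library was the highest in all 4 lines. HHAT differed from parental cells by −0.04 ± 0.43 (edgeR adjusted p = 0.983) and from TICs by −1.53 ± 0.44 (edgeR unadjusted p = 0.00581, adjusted p = 0.98). GLI1 had 100, 0, 0 and 0 reads in parental cells, 137, 31, 65 and 131 in TICs and 38, 0, 0 and 0 in knockdown TICs. It thus had reads in every TIC library and, among the other 8, in those of H1703 only. Against parental cells, where only H1703 gives a difference (−1.29), no fold change over the 4 lines is given.

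The other Hedgehog components gave no shared direction. PTCH1, receptor and target, was at 13.2, 38, 22 and 28.7 CPM in parental cells and 29.5, 22.2, 21 and 25.3 CPM in knockdown TICs, higher in H1703 and lower in the other lines. GLI2 was at 12.2, 0.026, 0.12 and 20.1 CPM against 1.51, 0.662, 2.58 and 5.23 CPM, lower in H1703 and CALU and higher in H1299 and CHAGO. SMO had under 6 CPM in all 8 libraries, with no reads in either CALU library. GLI3 was at 0, 10.3, 24.7 and 44.5 CPM against 0, 28.8, 30.4 and 43.6 CPM (0.54 ± 0.42, edgeR adjusted p = 0.711). Of 21 Hedgehog components 16 were tested, 8 were higher and 8 lower, none passed an unadjusted edgeR p of 0.05 or DESeq2, and the median log2 fold change was −0.01. The same list had a median of 0.33 in TICs against parental cells and −0.38 in knockdown TICs against TICs, and leaving out 1 line moved the median against parental cells to between −0.13 and 0.28. The 13 tested Hedgehog target genes had a median of −0.28, with 5 higher and 8 lower, and their median was −0.59 without H1299 and −0.05 without CHAGO. SOX2, the transcription factor that activates HHAT, was at 0, 8.09, 17 and 0 CPM against 1.04, 6.09, 2.35 and 0 CPM, so it had reads in 3 of the knockdown libraries and in 2 parental ones, and was lower in H1299 and CHAGO. ECT2, a guanine nucleotide exchange factor that the kinase acts on, was lower in 3 lines and higher in CHAGO, at differences of −0.58, −1.11, 1.10 and −1.19.

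Genes of sterol synthesis were higher in knockdown TICs than in parental cells. Of 25 genes 24 were tested and 23 of them were higher, at a median of 0.80. INSIG1, which holds back the SREBP factors, was at 74.1, 193, 139.5 and 161 CPM against 171, 420.2, 657 and 556 CPM (1.52 ± 0.32, edgeR adjusted p = 0.163). STARD4, a sterol carrier, was at 5.13, 56.2, 96.6 and 52.8 CPM against 49, 145, 214 and 164 CPM (1.80 ± 0.34). SC4MOL, a sterol methyl oxidase (1.85), SC5DL, a sterol desaturase (1.35), and HMGCS1, a synthase early in the pathway (1.64), were also higher in all 4 lines. Of the 24, 12 had an unadjusted edgeR p under 0.05 and higher levels, beside 5.45% of all tested genes, 10 passed in DESeq2, beside 1.87%, and none passed edgeR's adjusted p. Line medians were 1.04, 0.34, 1.38 and 1.33. In TICs with PRKCI the median was 1.07, and between the TIC states 0.01. The line medians of TICs against parental cells were 1.14, 0.04, 1.545 and 1.57, so the H1299 TICs were near parental cells. The 17 tested genes of fatty acid synthesis had a median of 0.30 with 14 higher, among them SCD, the stearoyl-CoA desaturase (0.79 ± 0.22).

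Hypoxia response genes were higher as well. Of 22 genes 21 were tested, 20 were higher and the median log2 fold change was 1.03. An unadjusted edgeR p under 0.05 with higher levels was met by 9, beside 5.45% of all tested genes. Line medians were 0.81, 0.53, 0.74 and 1.23. KDM3A, a histone demethylase, was at 106, 148, 89.4 and 89.8 CPM against 171, 253, 161 and 228 CPM (0.91 ± 0.17, edgeR adjusted p = 0.143). P4HA2 and P4HA1, subunits of collagen prolyl hydroxylase, were at 1.73 and 1.31, DDIT4, an inhibitor of mTORC1, at 1.46, and BHLHE40, a transcriptional repressor, at 1.75, each higher in 4 lines. Glycolysis genes, many of which also respond to low oxygen, did not share this: 7 of 19 were higher, with a median of −0.08. The hypoxia list had a median of 0.86 in TICs against parental cells. Its line medians there were 0.02, 1.20, 1.05 and 1.02, so the H1703 TICs were near parental cells.

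Most lysosome, ER and antigen presentation genes were higher. Counts at an unadjusted edgeR p under 0.05 in these lists are of higher genes, and 5.45% of all tested genes met the same. Of the 26 lysosome and autophagy genes 21 were higher (median 0.39, 8 at an unadjusted p under 0.05), with line medians of 0.00, 0.92, 0.02 and 0.89. Without H1703, H1299, CHAGO or CALU the median was 0.54, 0.28, 0.60 and 0.27. In TICs with PRKCI the lysosome list had a median of 0.75 against parental cells. Its line medians there were 0.23, 0.91, 0.38 and 1.53, and its median in knockdown TICs against TICs was −0.37. SQSTM1, the autophagy receptor that also binds the atypical kinases, was at 527, 390.4, 208 and 226 CPM against 843, 662, 286 and 875 CPM (0.91 ± 0.26). Among unfolded protein response genes 18 of 21 were higher (median 0.33, 6 at an unadjusted p under 0.05). The list had line medians of 0.10, 0.42, 0.07 and 0.91, and its median was 0.23 without CALU and 0.45 without CHAGO. Its members EDEM1, which takes misfolded glycoproteins to degradation, and SYVN1, a ubiquitin ligase of the ER, were at 1.46 ± 0.36 and 1.37 ± 0.39. All 14 genes of HLA class I and peptide loading were higher in the fit (median 0.92, 5 at an unadjusted p under 0.05). That list was uneven between lines, with medians of −0.05, 2.15, 0.93 and 0.93. In TICs with PRKCI the unfolded protein response and HLA lists had medians of 0.23 and 1.17 against parental cells. Between the TIC states their medians were 0.03 and −0.06. ERAP1, the peptidase that trims peptides for class I, was at 43.5, 53, 41.9 and 60.4 CPM against 68.1, 151, 66.7 and 178 CPM (1.11 ± 0.23, edgeR adjusted p = 0.163), and in TICs with PRKCI at 0.21 against parental cells. HLA-B was at 11.1, 24.9, 5.9 and 41.1 CPM against 24.2, 197, 8.42 and 173 CPM. Class I genes are near copies of each other, so how reads were shared among them is uncertain. CD68 was higher beside these lists, at log2 differences of 1.26, 0.99, 10.15 and 0.18, and its part in them was not tested, while PTPRC stayed at 0.703 CPM or less in all 8 libraries.

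FTL and FTH1, the ferritin chains, which like ribosomal protein genes have processed copies in the genome that can share reads, were at 1.05 ± 0.22 and 1.10 ± 0.33. TNFRSF10B, a death receptor, and TP53INP1, a p53 target, were at 1.68 ± 0.33 and 1.58 ± 0.34 and higher in 4 lines. The p53 target list as a whole was not shifted like CDKN1A, with 9 of 20 genes higher and a median of −0.02. Its line medians were 0.14, 0.05, 0.23 and 0.10. An unadjusted edgeR p under 0.05 was met by 3 of the higher and 0 of the lower genes, beside 5.45% and 5.29% of all tested genes.

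Proliferation genes were lower in knockdown TICs. Of 29 genes of G1/S and DNA replication 28 were lower, at a median of −1.01. All 29 genes of G2/M and mitosis were lower in the fit, with a median of −1.03, and of 16 tested replication-dependent histones 15 were lower, with a median of −1.31. At an unadjusted p under 0.05 with lower levels there were 16, 14 and 12 genes of these lists, beside 5.29% of all tested genes, and none passed edgeR's adjusted p. DESeq2 called 5, 0 and 7 of them lower, beside 0.985%. Fewer dividing cells and less of these RNAs in each cell cannot be told apart in bulk libraries. In TICs with PRKCI the medians against parental cells were −1.25, −1.08 and −0.94, and between the TIC states 0.16, 0.07 and −0.35.

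CHAGO stood apart in these lists. Its G1/S median was −0.07 and its G2/M median 0.19, whereas those of the other lines were −1.46 to −1.11 and −1.90 to −0.54. The histone medians were below 0 in every line, at −1.14, −1.47, −0.65 and −1.92. MCM3, a subunit of the replicative helicase, was at 318, 119.8, 172 and 120.5 CPM against 135, 35.9, 54.8 and 77.2 CPM (−1.26 ± 0.32) and lower in 4 lines. RFC3, of the clamp loader, was at 84.6, 109, 83.9 and 34 CPM against 27.4, 36.1, 78.7 and 7.22 CPM, with −0.09 in CHAGO. CENPF, a kinetochore protein, was at 1131, 639, 368 and 1458 CPM against 721, 301, 299 and 255 CPM, with its largest difference in CALU. TOP2A, the topoisomerase of dividing cells, was at 1489, 752, 1626 and 2391 CPM against 755, 427, 1595 and 368 CPM and nearly level in CHAGO (−0.03). HIST1H1D, a linker histone, was at 84.8, 9.7, 1.67 and 32.3 CPM against 29.6, 3.18, 0.172 and 6.48 CPM, lower in 4 lines (−2.10 ± 0.43). Histone genes are near copies, so reads may have been split among them, and without the CALU line the G2/M median was −0.55.

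The promoters of these 3 lists were searched for 4 short motifs, and 5 promoters are shown. They belong to the list members of smallest p that hold the motif searched, with genes of a single chromosome passed over in this choice. The sequences are from RefSeq on GRCh38.p14, run from 250 bases before the transcription start to 50 bases from it on, and are printed 5′ to 3′ on the gene's strand with each motif match in capitals. For MCM3 (chr6:52284693-52284992, minus strand) and RFC3 (chr13:33817899-33818198, plus strand) the capitals mark an E2F site, searched on both strands as TTTCCCGC, TTTCGCGC, TTTGCCGC or TTTGGCGC. For CENPF (chr1:214602945-214603244, plus strand) and TOP2A (chr17:40417847-40418146, minus strand) they mark the cell cycle genes homology region, searched on both strands as TTTGAA. For HIST1H1D, now named H1-3 (chr6:26234938-26235237, minus strand), they mark TATAAA on the gene's strand.
MCM3: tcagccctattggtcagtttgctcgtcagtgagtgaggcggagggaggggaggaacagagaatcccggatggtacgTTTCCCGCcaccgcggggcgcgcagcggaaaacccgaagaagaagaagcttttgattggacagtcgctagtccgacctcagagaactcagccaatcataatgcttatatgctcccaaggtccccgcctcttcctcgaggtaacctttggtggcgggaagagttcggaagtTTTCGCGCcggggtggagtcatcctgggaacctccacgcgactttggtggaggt
RFC3: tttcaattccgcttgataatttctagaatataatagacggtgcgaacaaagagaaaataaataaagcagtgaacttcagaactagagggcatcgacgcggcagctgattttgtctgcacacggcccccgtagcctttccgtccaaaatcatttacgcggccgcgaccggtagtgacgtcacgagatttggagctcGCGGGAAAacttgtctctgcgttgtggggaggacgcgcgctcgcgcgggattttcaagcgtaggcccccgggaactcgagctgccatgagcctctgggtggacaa
CENPF: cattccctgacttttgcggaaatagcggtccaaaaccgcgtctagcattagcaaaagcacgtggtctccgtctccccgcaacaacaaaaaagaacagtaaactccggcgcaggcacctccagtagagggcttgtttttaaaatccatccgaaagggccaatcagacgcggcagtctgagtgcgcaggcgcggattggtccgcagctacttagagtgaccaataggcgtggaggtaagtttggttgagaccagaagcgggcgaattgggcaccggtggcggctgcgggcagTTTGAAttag
TOP2A: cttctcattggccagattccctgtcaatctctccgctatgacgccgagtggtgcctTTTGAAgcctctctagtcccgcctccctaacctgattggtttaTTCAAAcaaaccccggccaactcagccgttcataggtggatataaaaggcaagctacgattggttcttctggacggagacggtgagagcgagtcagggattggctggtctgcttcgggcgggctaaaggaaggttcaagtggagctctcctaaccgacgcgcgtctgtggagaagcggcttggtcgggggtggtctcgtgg
HIST1H1D: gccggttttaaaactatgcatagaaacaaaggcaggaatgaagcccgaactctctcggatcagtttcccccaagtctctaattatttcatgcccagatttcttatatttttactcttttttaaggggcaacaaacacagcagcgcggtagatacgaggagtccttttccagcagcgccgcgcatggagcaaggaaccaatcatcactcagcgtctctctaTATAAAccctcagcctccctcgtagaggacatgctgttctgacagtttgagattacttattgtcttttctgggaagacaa
RefSeq promoters were found for 25 G1/S, 24 G2/M and 15 histone genes. An E2F site was in 17, 3 and 3 of these, beside 3.99% of 27305 genes. TTTGAA was in 1, 16 and 6 of them, beside 18.2% of all genes, and TATAAA in 1, 2 and 10, beside 8.99%. CCAAT, searched on both strands, was in 16, 21 and 11, beside 39.7%, so it was frequent in all 3 lists. None of the 4 motifs contains another, and each match describes letters in the window and no binding.

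Other genes of growth were lower too. Of 25 ribosome biogenesis genes 21 were lower (median −0.49), and of 27 cytosolic ribosomal protein genes 26 were lower (median −0.38), with line medians of −0.09, −1.41, −0.14 and −0.37 for the first and 0.02, −1.01, 0.08 and −0.61 for the second. The ribosomal protein medians of H1703 and CHAGO were thus slightly above 0. Without H1299 the medians of the lists were −0.24 and −0.17, and without H1703 −0.63 and −0.58. In TICs with PRKCI they were −0.79 and −0.13 against parental cells, and between the TIC states 0.22 and −0.19. NCL, the nucleolar protein nucleolin, was at −0.62 ± 0.19. All 20 genes of homologous recombination and the Fanconi pathway were lower in the fit, at a median of −0.71, and 9 were lower in all 4 lines. Their line medians were −0.93, −0.64, −0.10 and −0.80. In TICs with PRKCI their median was −0.99 against parental cells, and between the TIC states it was 0.24. An unadjusted edgeR p under 0.05 with lower levels was met by 5 of them, beside 5.29% of all tested genes. Of 25 targets of YAP and TEAD 19 were lower, at a median of −0.60 and line medians of 0.00, −0.80, −0.12 and −1.41. An unadjusted edgeR p under 0.05 with lower levels was met by 7, CRIM1 among them and called, beside 5.29% of all tested genes. CYR61 and CTGF, secreted matricellular proteins and standard readouts of YAP, were at 48.7, 559.6, 29.6 and 1331 and 32.1, 267, 0.435 and 469 CPM in parental cells. In knockdown TICs they were at 7.57, 42.8, 26.4 and 372 and 3.86, 6.75, 0 and 88 CPM, lower in each line, with CYR61 nearly level in CHAGO. The edgeR log2 fold changes were −2.16 ± 0.62 and −3.50 ± 1.11 (adjusted p = 0.251 and 0.307). THBS1, thrombospondin, was at −2.62 ± 0.58 and lower in 4 lines. The YAP list had a median of −0.70 in TICs against parental cells, and the knockdown median was −0.27 without CALU.

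**Figure D5:**
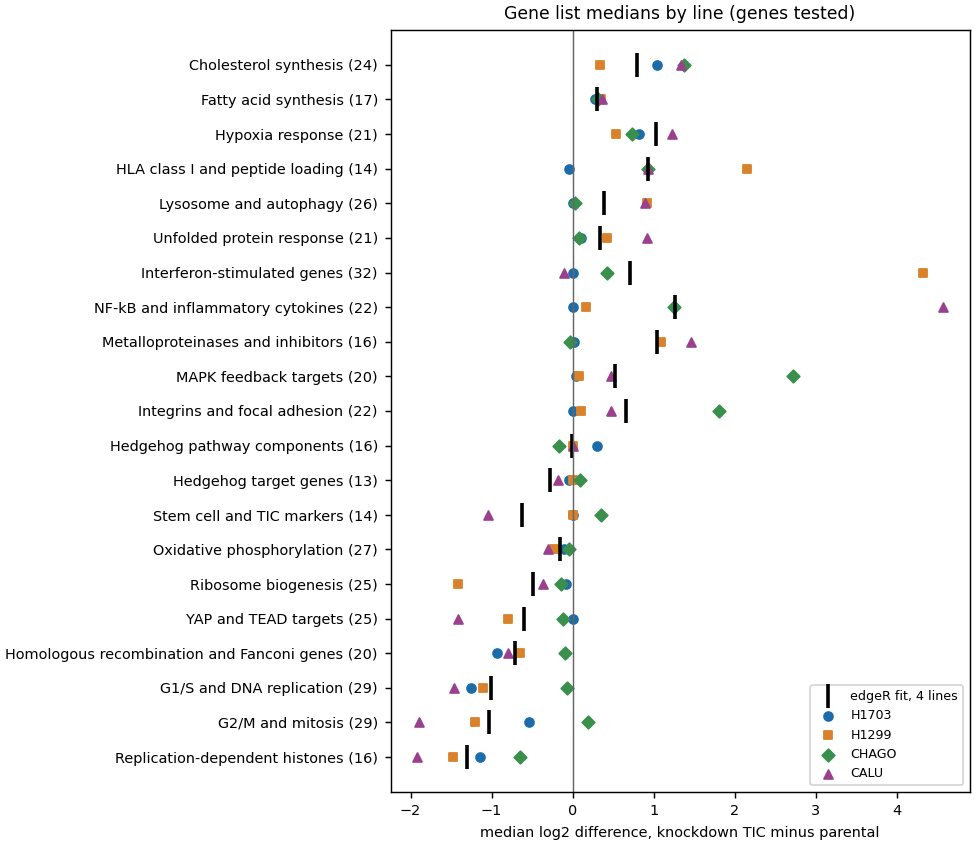
Median log2 difference between knockdown TIC and parental libraries of 21 gene lists in each line (colored points), with the median of the edgeR estimates as a black bar and the number of genes tested in brackets. Cholesterol and hypoxia genes lie above 0 in all 4 lines, histones lie below 0 in all 4, CHAGO lies near 0 for the cell cycle lists, and the interferon, NF-kB and MAPK lists are each led by 1 line.

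The NF-kB, interferon and MAPK lists were uneven between lines. Of 22 tested genes of NF-kB and inflammatory cytokines 20 were higher in the fit, but line medians were 0.00, 0.16, 1.25 and 4.57, and the median of 1.26 was 0.45 without CALU and 2.24 to 2.45 without any 1 of the other lines. IL8, a neutrophil chemokine, had no reads in either library of H1703 and H1299, was at 0 and 78.5 CPM in CHAGO and at 11.3 and 6539.7 CPM in the CALU parental and knockdown libraries. IL6 was at 6.83 and 119 CPM in CHAGO and 2.14 and 497 CPM in CALU, with none in the others. In TICs with PRKCI the NF-kB line medians against parental cells were 0.00, 0.00, 1.18 and 2.08. The TIC libraries held 98, 6, 2462 and 9411 reads of IL8 and 0, 0, 3742 and 702 of IL6. Interferon-stimulated genes were high in H1299, whose median was 4.32, beside −0.11 to 0.42 elsewhere. In TICs with PRKCI the line medians of this list were 0.00, 4.84, 0.04 and 0.18 against parental cells. Leaving H1299 out, the median of the list was −0.27 in place of 0.70, while it was 1.33 without CALU. IFI27 and ISG15, both induced by interferon, were at 0 and 0.468 CPM in H1299 parental cells and 45.7 and 16.7 CPM in its knockdown TICs. MAPK feedback targets had a median of 2.71 in CHAGO and of 0.04 to 0.47 in the other lines. Their median of 0.52 over the fit was 0.26 without CHAGO and 0.96 without H1299. In TICs with PRKCI their line medians were 0.17, 0.11, 2.67 and 1.20 against parental cells. SPRY2, an inhibitor of receptor tyrosine kinase signaling, was higher in 4 lines, at 1.24, 28, 4.37 and 23.7 CPM against 6.06, 58.2, 28.7 and 56.6 CPM (1.82 ± 0.35, edgeR adjusted p = 0.139).

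Metalloproteinases and their inhibitors went both ways. Of 19 listed 16 were tested, 11 were higher and 5 lower in the fit. An unadjusted edgeR p under 0.05 was met by 6 of the higher and 2 of the lower genes, beside 5.45% and 5.29% of all tested genes. MMP1, interstitial collagenase, was at 259 and 17830.0 CPM in the CALU parental and knockdown libraries and lower in the knockdown library of H1703 (−2.33). MMP10 was at 0 and 79.8 CPM in CALU. TIMP1, an inhibitor of these proteases, was at 7.45, 10.1, 0.135 and 19.3 CPM against 7.6, 46.1, 13 and 819 CPM. The 2 lower genes that met it were TIMP3, another such inhibitor, at 0, 0, 840.5 and 81.5 CPM against 0, 0, 62.5 and 9.86 CPM, and ADAMTS1, a secreted protease, at 0, 7.88, 96.1 and 644 CPM against 0, 3, 40.3 and 160.2 CPM. SERPINB2, an inhibitor of plasminogen activators, was at 494 and 5996 CPM in CALU and, in TICs of that line, at 131 CPM. ITGA2, an integrin subunit that binds collagen, was higher in 4 lines, at 1.82, 43.5, 15.1 and 264 CPM against 16.5, 67.7, 208 and 2669.6 CPM (2.66 ± 0.56, edgeR adjusted p = 0.171).

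Genes used as markers of TICs or stem cells differed between lines. Of 22 listed 14 were tested, 3 were higher and 11 lower in the fit, 1 was higher at an unadjusted p under 0.05, a share near the 5.45% of all tested genes, and line medians were 0.00, 0.00, 0.35 and −1.04. That gene was ALDH1A3, an aldehyde dehydrogenase, at 21.2, 0, 3.12 and 116 CPM against 16.5, 1.37, 17.2 and 990.3 CPM, lower in H1703 and higher in the other lines. ALDH1A1 was at 269.8, 0, 0.705 and 5.53 CPM against 101, 0, 0.0925 and 2.65 CPM, with no line higher. Squamous genes had too few reads for most to be tested, 7 of 22. Of these 7, 6 were higher in the fit, at a median of 2.04. An unadjusted edgeR p under 0.05 with higher levels was met by 2, beside 5.45% of all tested genes. The list was led by CHAGO, with line medians of 0.00, 0.00, 4.66 and −0.15. In TICs with PRKCI its line medians were 0.00, 0.00, 2.835 and 1.17 against parental cells. Among the 7 tested genes KRT15, a keratin of basal cells, was higher in 4 lines, at 2.62, 0.234, 0.705 and 1.35 CPM against 12.2, 0.883, 2.93 and 5.17 CPM. TP63, the master factor of squamous cells, was at 4.26 and 43.9 CPM in CHAGO but at 3.05 and 2.73 CPM in CALU. In TICs with PRKCI TP63 was at 36 CPM in CHAGO and 45 CPM in CALU.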

How the data were processed

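RNA was extracted with a Qiagen kit and libraries were made with NuGen reagents, per the labels' protocols. Per the submitters' processing notes, HTSeq 0.5.3p3, TopHat 1.4 and CASAVA 1.4 were used and the genome build was hg19, with no role stated for each. Raw read counts were deposited as whole numbers, 1 for each gene in each library, as the file headers say. A further table deposited by the authors holds mode-normalized values, a score that came out as raw counts scaled by 1 factor for each library and rounded. Columns were joined to samples by name, and the CALU knockdown column differs from its sample title by 1 letter. The table lists 22506 genes, 4044 of them with no read, and 26 symbols had been turned into dates.

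Counts were analysed in R 4.3.3 with edgeR 4.0.16: filterByExpr with the 3 groups, TMM factors, and a robust quasi-likelihood fit with terms for state and line on all 12 libraries (6 residual degrees of freedom, common dispersion 0.489). Tests were two-sided with Benjamini-Hochberg adjustment over the 14008 tested genes at 0.05. SEs were computed by dividing the absolute log2 fold change by the root of F. The line named in the labels pairs the libraries. After group means were removed, the correlation across genes between a knockdown and a parental library was 0.562 to 0.686 within a line (4 pairs) and −0.414 to −0.0775 between lines (12 pairs). CPM values carry the TMM factors, and differences within a line are of log2 CPM with a prior count of 2.

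The named genes are PRKCI, HHAT, GLI1, SOX2, ECT2, SHH, PTCH1, SMO, GLI2, GLI3, KLHL24, IDS and VGLL3. To them come up to 15 genes in each direction with 1 sign in 4 lines and a mean log2 CPM of at least 2, called genes by size and then those of smallest p, and up to 6 members of smallest p of each list described. The comparison, the 56 gene lists and this rule were chosen with earlier results of these data known. Lists are described by counts and medians only. MMP3 and the cell type markers lie outside it. Results of some single genes are not reported here. RefSeq promoters were matched by symbol, and gene coordinates on hg19 were not used here. The fit was also run on simulated counts, in which each changed gene had the same change in every line. That run does not cover genes whose change differs between lines, as for many here. Alternatives were other scalings, filters and thresholds, DESeq2 1.42.0, limma 3.58.1 with voom and on the mode-normalized values (pseudocount 1), no block, fewer libraries, and each line left out.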

Additional observations from a re-analysis of the deposited data

Results flagged for a closer look

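Among 126 groups of 4 libraries or lines examined, 14 had 1 value far from the other 3, its gap to the nearest taking more of the whole range than Dixon's critical value for 4 values. Chance flags about 1 in 20 groups, so some of these would arise in any data.

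In H1703, GLI1 was at 3.64 CPM in parental cells and 1.47 CPM in knockdown TICs, with 0 in the other lines. In H1299, HHAT was at 20.3 CPM in knockdown TICs, against 1.43 to 3.49 in the other lines, and the median log2 difference of the interferon-stimulated genes was 4.32, against −0.11 to 0.42.

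CHAGO gave the most such values. Its parental library held the least KLHL24, at 35.6 CPM against 89.6 to 98.5. BZW2 was at 1478 CPM in its parental and 900.1 CPM in its knockdown library, against 56.8 to 255 and 24.3 to 65.8 CPM in the other lines. VGLL3 was at 5501 and 1097 CPM, against 0 to 130 and 0 to 60.8. ECT2 was at 1032 CPM in its knockdown library, against 281 to 316, and the MAPK feedback targets had a median log2 difference of 2.71, against 0.04 to 0.47.

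In CALU, MMP3 was at 1.63 CPM in parental cells, with 0 in the other lines, and at 417 CPM in knockdown TICs, against 0 to 0.309. C12orf35 was at 886 CPM in its knockdown library, against 308 to 381.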

How the results depend on the processing

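The count of 5 genes was small under every setting of edgeR and moved with most of them. It was 9 at an adjusted p of 0.10, 8 with DESeq2's size factors, 3 with a filter of 1 CPM in 4 libraries, 1 with a minimum log2 fold change of 1, 20 with limma on the mode-normalized values and 400 with DESeq2, of which 4 were among the 5. Leaving out each line in turn gave 0 to 2 genes, and 989 to 1512 at an unadjusted p under 0.05 in place of 1505. No gene was called by edgeR without the replicate block (319 at an unadjusted p under 0.05), on the 8 compared libraries alone (1103), on H1703 and H1299 only (947) or on CHAGO and CALU only (1006). Leaving out the CALU knockdown library, chosen after seeing the data, also gave 0 (1164).

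The named genes kept their direction except for GLI2, HHAT, PTCH1, SMO and SOX2, which were low or uneven between lines and none of which was called. GLI1 had no reads in either group without H1703 or on CHAGO and CALU only, so those settings give no value for it. Leaving out each line in turn gave log2 fold changes of −0.201 to 2.85 for GLI2, −0.221 to 0.129 for HHAT, −0.297 to 0.411 for PTCH1, −0.067 to 3.33 for SMO and −1.95 to 1.46 for SOX2. With voom GLI2 was at −1.28 and PTCH1 at −0.119, and without the replicate block GLI2 was at −1.70, PTCH1 at −0.0568 and HHAT at 0.0291. HHAT was at 0.000475 with DESeq2's size factors. On mode-normalized values HHAT was at 0.0387 and SOX2 at 0.206. On H1703 and H1299 only HHAT was at 0.343, SMO at −0.0577 and SOX2 at 1.47, on CHAGO and CALU only PTCH1 was at −0.131, and on the 8 libraries SOX2 was at 0.0219. The cause was not tested. Over all genes printed or eligible, 105 comparisons of a gene with a setting gained the call and 44 lost it. A count of 0 allows up to 3 reads, 0.132 CPM in the shallowest of the 8 libraries and 0.0346 CPM in the deepest, for counting error only.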
